A study of Mus musculus with 45 samples.

Results

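Distal colon RNA was compared between Il10 knockout mice given compound 13 at 10 mg/kg and Il10 knockout mice given vehicle. Libraries were chosen by their titles in the first cohort, which gave 7 libraries at 10 mg/kg and 10 vehicle libraries, 17 of the 45 libraries in the series. A further library, whose title gives 30 mg/kg and whose treatment field gives 10 mg/kg, was left out. All 17 libraries are labelled as IL10 knockout, and the labels used here give no strain, age, route or length of dosing. The 9 knockout libraries at 30 mg/kg entered the same model to estimate the spread, and 8 wild-type libraries labelled as receiving no treatment served for marker checks. Libraries were made by poly(A) enrichment. Nothing in the labels ties each library to an animal of its own. The p-values therefore reflect library-to-library spread, and part of that spread may be technical.

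Compound 13 is a code name for an antagonist of GPR4, a G protein-coupled receptor that is activated by extracellular protons and is known from vascular endothelium. Gpr65 and Gpr132 encode related receptors, of which GPR65 is known from lymphocytes and myeloid cells. Inflamed gut wall can become acidic. Mice without interleukin 10, a cytokine that restrains macrophages and T cells, develop colitis in which interleukins 12 and 23 and interferon gamma take part.

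The Il10 count was 0 in all 26 knockout libraries of the model. In the shallowest library at 10 mg/kg and in the shallowest vehicle library a count of 0 allows up to 0.127 and 0.129 CPM (counts scaled to 1e6 per library), counting error only. The 8 wild-type libraries held 10 counts of Il10 in all, in 4 of the libraries, so the gene was near the limit of detection there too. Goblet cell markers were abundant, though they do not mark the distal colon in particular. Their summed values were 28807 to 47335 TPM (length-corrected transcript abundance) at 10 mg/kg and 24877 to 42806 TPM with vehicle.

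Almost no gene separated the 10 mg/kg colons from the vehicle colons. Of 16948 genes tested, 2 passed an adjusted p of 0.05 (0.0118%), 1 higher (0.0059%) and 1 lower (0.0059%) (edgeR quasi-likelihood test with Benjamini-Hochberg adjustment). Neither encodes a protein. CT010467.1, an annotated ribosomal RNA gene, was higher at 10 mg/kg, and Gm9625, a processed pseudogene that resembles the ribosomal protein gene Rplp0, was lower. Of 14824 protein-coding genes, 0 were called by edgeR, with a smallest adjusted p of 0.107, and limma voom also called 0. DESeq2 called 67 protein-coding genes among the 81 genes it called, of 13333 to which it gave an adjusted p (0.608%). At an unadjusted p of 0.05, 1865 of all genes passed in edgeR (11%), 901 higher and 964 lower. That share was 11.4% of protein-coding genes, 14.1% of the 455 pseudogenes, 20% of the 10 ribosomal RNA loci and repeats and 6.15% of the 1659 other genes. The 2 ribosomal RNA loci and repeats that passed were CT010467.1 and Lars2. Lars2 encodes a protein but was classed there, and the mitochondrial messengers were classed with the other genes. The median log2 fold change of all genes was -0.02. The CPM values of the groups did not overlap for 11 genes (0.0649%), 4 higher and 7 lower at 10 mg/kg.

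CT010467.1 lies on the minus strand at chr17:39846353-39848827 in GRCm38. AY036118, annotated as a long noncoding RNA at chr17:39847113-39848035 on the same strand, overlaps it. All 923 bases of AY036118 recur in the longest CT010467.1 transcript, at bases 167 to 1089 of 1849. The first 60 bases of AY036118 in the GENCODE M21 transcripts, at chr17:39847976-39848035 on the minus strand, are shown because reads from them fit both features. No base is in capitals because none differs.
AY036118: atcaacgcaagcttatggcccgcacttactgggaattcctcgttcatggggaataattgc

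CT010467.1 had 1706 CPM in the lowest 10 mg/kg library, a median of 2211 CPM and a highest value of 3741 CPM. The vehicle libraries had 544 CPM at the lowest, a median of 961 CPM and 1342 CPM at the highest. The groups did not overlap. The log2 fold change was 1.49 ± 0.21 (SE, n = 7 and 10, edgeR adjusted p = 0.00198), or 2.8-fold. The call held with each of the 17 libraries left out in turn, with edgeR adjusted p-values of 0.000932 to 0.011. It was lost with the processed pseudogene share of each library as a covariate (log2 fold change 1.44, edgeR adjusted p = 0.0664). That share differed between the groups, so the share and the dose cannot be told apart there. The call was lost too with only 10 mg/kg libraries 4, 6 and 7, whose total count lies in the vehicle range (1.42, edgeR adjusted p = 0.334). That fit drops the 4 libraries at 10 mg/kg with more counts than any vehicle library, so depth and the smaller group cannot be told apart. The call was also lost with the ribosomal RNA share as a covariate (1.19, edgeR adjusted p = 0.0677). That share counts CT010467.1 itself, so nothing is read from that fit.

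The overlapping AY036118 had the opposite pattern. It was listed at 0 in 6 of the 7 libraries at 10 mg/kg and at 126 CPM in 10 mg/kg library 6, while the vehicle libraries had 13.1 CPM at the lowest, a median of 74.6 CPM and 156 CPM at the highest. It was not called (edgeR adjusted p = 0.563), and was called without 10 mg/kg library 6 (adjusted p = 0.00213). With the counts of both features summed, the pair had 1794 to 3741 CPM at 10 mg/kg and 596 to 1455 CPM with vehicle. The log2 fold change of the sum was 1.38 ± 0.20 (edgeR adjusted p = 0.00519). A list of 15 ribosomal RNA loci and repeats, 12 of them in the count data and 9 tested, does not hold CT010467.1. In it, Lars2, which encodes the mitochondrial leucyl-tRNA synthetase and is listed because ribosomal RNA reads can fall on it, had 122 to 309 CPM at 10 mg/kg and 87.8 to 159 CPM with vehicle (log2 fold change 0.66 ± 0.16, edgeR adjusted p = 0.136). The mitochondrial ribosomal RNAs mt-Rnr2 and mt-Rnr1 had log2 fold changes of 0.46 ± 0.31 and 0.41 ± 0.31. Of the 9 tested members, which include AY036118, 1 was higher and 0 lower at an unadjusted p of 0.05. Over all genes, 5.32% were higher and 5.69% lower at that threshold. The median log2 fold change of the 9 was 0.26.

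Gm9625 is a processed pseudogene, an intronless genomic copy of a spliced messenger, on the plus strand at chr13:67810246-67811200. Of its 955 bases, 930 equal those of the transcript of Rplp0, which encodes a protein of the large ribosomal subunit. The 60 bases below, from the GENCODE M21 transcripts, lie at chr13:67810436-67810495 in Gm9625 and at chr5:115560877-115560936 in Rplp0, both on the plus strand of GRCm38. They are shown because only reads over differing bases can tell the features apart, and capitals mark the 4 bases that differ.
Gm9625: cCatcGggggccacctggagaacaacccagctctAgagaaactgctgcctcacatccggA
Rplp0: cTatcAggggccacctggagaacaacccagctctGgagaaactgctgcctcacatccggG

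Gm9625 had 24.1 CPM in the lowest 10 mg/kg library, a median of 33.1 CPM and a highest value of 39.5 CPM. The vehicle libraries had 43.4 CPM at the lowest, a median of 48.9 CPM and 54.7 CPM at the highest. The groups did not overlap. The log2 fold change was -0.58 ± 0.10 (SE, n = 7 and 10, edgeR adjusted p = 0.0233). Its call was lost in 8 of the 17 fits that left out 1 library, namely 10 mg/kg library 1, 5 or 7 or vehicle library 2, 5, 7, 8 or 10, with log2 fold changes of -0.64 to -0.53 over the 17 fits. The call was also lost with total-count scaling (-0.66, edgeR adjusted p = 0.0663) and without the 3 vehicle libraries of highest pancreas signal (-0.62, adjusted p = 0.0996). With only 10 mg/kg libraries 4, 6 and 7, whose total count lies in the vehicle range, the call was lost as well (-0.53, edgeR adjusted p = 0.595). Each of 5 library covariates ended it too, with edgeR adjusted p-values of 0.0504 for the smooth muscle level, 0.0677 for the ribosomal RNA share, 0.25 for the mitochondrial share, 0.608 for the processed pseudogene share and 0.922 for the total count. The processed pseudogene share counts Gm9625 itself, so nothing is read from that fit. The ribosomal RNA and mitochondrial shares and the total count differed between the groups, as given below. In those fits the covariate and the dose cannot be told apart. Rplp0 itself had 773 to 942 CPM at 10 mg/kg and 760 to 909 CPM with vehicle, a log2 fold change of -0.03 ± 0.07 (edgeR adjusted p = 0.873). Gm9625 held 2.89% to 4.49% of the counts of the pair at 10 mg/kg and 4.81% to 5.88% with vehicle. With Rplp0 and its 3 matching pseudogenes summed, the log2 fold change was -0.16 ± 0.07 (edgeR adjusted p = 0.437).

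Other features with a near-identical copy lay close to the threshold. These were chosen after their values were seen, apart from Rnaset2b. Gm10925, on the minus strand at chr1:24613974-24614651, is a nuclear copy of mitochondrial DNA. All of its 678 bases equal the corresponding bases of mt-Atp6, which is 681 bases long and encodes a subunit of the mitochondrial ATP synthase. The first 60 bases of each are shown because no base separates them, at chr1:24614592-24614651 on the minus strand and at chrM:7927-7986 on the plus strand (GENCODE M21, GRCm38).
Gm10925: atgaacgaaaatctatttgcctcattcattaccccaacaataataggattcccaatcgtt
mt-Atp6: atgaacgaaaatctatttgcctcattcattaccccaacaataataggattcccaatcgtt

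Gm10925 had 2541 CPM in the lowest 10 mg/kg library, a median of 4610 CPM and a highest value of 7102 CPM, against 1874, 2188 and 4168 CPM in the vehicle libraries. Of the 7 values at 10 mg/kg, 6 lay above all vehicle values. The log2 fold change was 1.01 ± 0.20 (edgeR adjusted p = 0.107), and Gm10925 was called without 10 mg/kg library 6 (adjusted p = 0.0122) or without vehicle library 9 (adjusted p = 0.0184). The log2 fold change of mt-Atp6 was -0.02 ± 0.25, and that of the pair summed was 0.54 ± 0.16 (edgeR adjusted p = 0.262). Gm10925 held 47.1% to 76.3% of the pair at 10 mg/kg and 36.6% to 59.5% with vehicle.

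Tpt1-ps3 equals the transcript of Tpt1, the gene of translationally controlled tumour protein, over all 519 of its bases. It had 2.31 to 5.04 CPM at 10 mg/kg and 4.72 to 12.4 CPM with vehicle, a log2 fold change of -1.18 ± 0.25, against 0.13 ± 0.08 for Tpt1. Gm5641 equals the transcript of Hnrnpa3, an RNA-binding protein gene, over all 1488 of its bases. It had 1.04 to 3.90 CPM at 10 mg/kg and 3.73 to 7.17 CPM with vehicle, a log2 fold change of -1.10 ± 0.24, against -0.07 ± 0.12 for Hnrnpa3. Neither pseudogene was called (edgeR adjusted p = 0.107 and 0.112). Rnaset2b, a protein-coding ribonuclease gene, has a transcript 99.1% identical to that of its paralogue Rnaset2a. Rnaset2b had 17.2 to 115 CPM at 10 mg/kg and 8.06 to 29.0 CPM with vehicle, a log2 fold change of 1.48 ± 0.30, against 0.26 ± 0.15 for the pair summed (edgeR adjusted p = 0.107 and 0.537). Of the 455 pseudogenes tested, 298 (65.5%) matched a protein-coding transcript at 95% identity or more over 80% or more of their length, so their counts are uncertain.

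**Figure D1:**
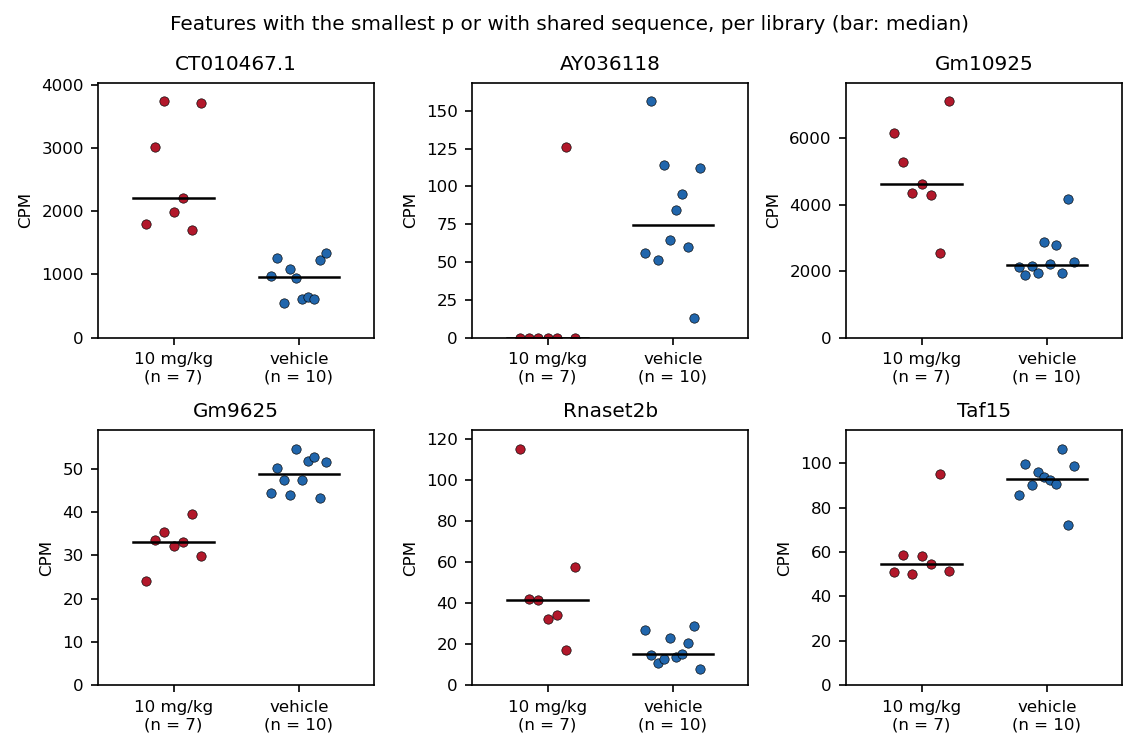
CPM of 6 features in each library at 10 mg/kg (n = 7, red) and with vehicle (n = 10, blue), with bars at the medians. CT010467.1 and Gm9625 did not overlap between the groups, and 10 mg/kg library 6 lay within the vehicle range for AY036118, Gm10925, Rnaset2b and Taf15.

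The make-up of the libraries differed between the groups. Of 14 measures per library, 7 passed an adjusted p of 0.05 (two-sided exact permutation test of the difference in means over 19448 arrangements, with Benjamini-Hochberg adjustment over the 14). Ribosomal RNA loci and repeats took 0.336% to 0.686% of counts at 10 mg/kg (median 0.45%) and 0.256% to 0.375% with vehicle (median 0.271%, exact permutation adjusted p = 0.00432). Of the 7 values at 10 mg/kg, 6 lay above all vehicle values. CT010467.1 is part of this share. Without it the share was 0.166% to 0.361% at 10 mg/kg (median 0.22%) and 0.123% to 0.31% with vehicle (median 0.186%), the groups overlapped, and the difference did not pass (exact permutation adjusted p = 0.300). As a percent of summed TPM with CT010467.1 kept, the difference of 0.118% did not pass either (exact permutation adjusted p = 0.132). Pseudogenes of all kinds took a median of 2.37% of counts at 10 mg/kg and 1.92% with vehicle (exact permutation adjusted p = 0.00576), and without Gm10925 a median of 1.87% at 10 mg/kg and 1.68% with vehicle (exact permutation adjusted p = 0.0299). Processed pseudogenes alone were lower, with a median of 0.446% at 10 mg/kg and 0.478% with vehicle (exact permutation adjusted p = 0.0169).

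Mitochondrial messenger RNAs took a median of 5.71% of counts at 10 mg/kg and 4.41% with vehicle (exact permutation adjusted p = 0.043). The total count, in M (mega-counts), was 23.6 to 35.4 M at 10 mg/kg (median 31.7 M) and 23.2 to 27.8 M with vehicle (median 25.5 M, exact permutation adjusted p = 0.043). The 10 most abundant genes took a median of 10.2% of counts at 10 mg/kg and 7.92% with vehicle (exact permutation adjusted p = 0.0369). Of values above 0, 13.0% to 17.3% were not whole numbers at 10 mg/kg and 16.9% to 18.6% with vehicle (exact permutation adjusted p = 0.00432). The shares of ribosomal protein, histone, long noncoding RNA and immunoglobulin genes, the number of genes at 1 CPM or more, the implied fragment length and the GC gradient did not pass (exact permutation adjusted p = 0.0977 to 0.285). Leaving out 1 library ended the pass of the total count in 13 of 17 omissions and that of the mitochondrial messengers and of the 10 most abundant genes in 11 each, while the other 4 measures passed in all 17. On the TPM scale the mitochondrial and processed pseudogene shares did not pass (exact permutation adjusted p = 0.132 and 0.208). These measures moved with the called features, and their part in the calls was not tested.

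**Figure D2:**
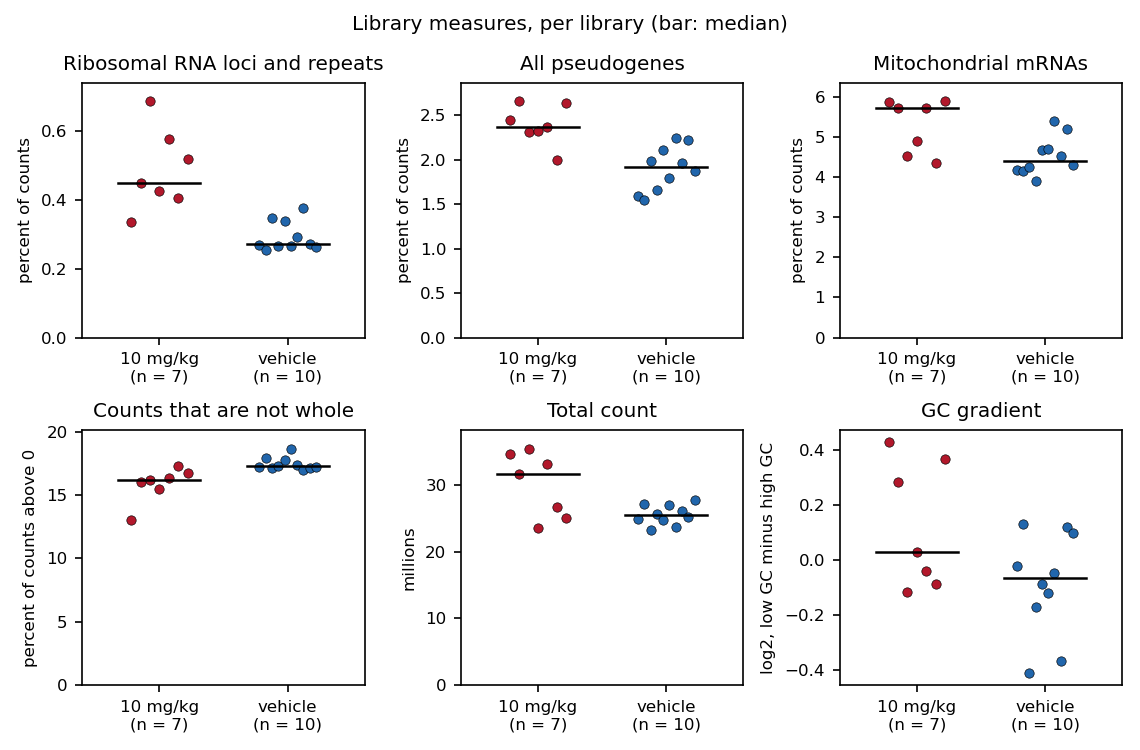
Measures of each library at 10 mg/kg (n = 7, red) and with vehicle (n = 10, blue), with bars at the medians. For ribosomal RNA loci, CT010467.1 included, and for all pseudogenes, 6 of the 7 libraries at 10 mg/kg lay above all vehicle libraries.

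Among protein-coding genes the log2 fold change also ran with base composition. Genes in the tenth with the lowest GC content had a median log2 fold change of 0.11, and 222 were higher and 27 lower at an unadjusted p of 0.05. In the tenth with the highest GC content the median was -0.13, with 34 higher and 146 lower. Spearman's rho across the 14824 genes, which are not independent replicates, was -0.25. With each library corrected for GC content those medians were 0.0068 and 0.0010. The correction aligns the libraries' medians within 20 bins of GC content, so medians near 0 follow from its design. After it, edgeR called 2 genes.

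The 10 protein-coding genes nearest the threshold in each direction, none of them called, had edgeR adjusted p-values of 0.107 to 0.125. The 10 on the higher side had a median GC content of 43.1%, and the 10 on the lower side 55.8%. On the higher side, Luc7l3, a splicing factor gene, had 107, 113 and 121 CPM as the lowest, median and highest values at 10 mg/kg and 75.0, 93.2 and 105 CPM with vehicle (log2 fold change 0.29 ± 0.06, edgeR adjusted p = 0.107). Mtpap, the mitochondrial poly(A) polymerase gene, had 23.7 to 30.4 CPM at 10 mg/kg and 19.3 to 23.1 CPM with vehicle (0.31 ± 0.07, edgeR adjusted p = 0.119). The groups did not overlap for Luc7l3 or Mtpap. Zmym2 and Zbtb11, zinc finger genes, had log2 fold changes of 0.47 each, Nup153, a nuclear pore gene, had 0.36, Patl1, an mRNA decay gene, had 0.37 and Rnf139, a ubiquitin ligase gene, had 0.35. Wdr37 had 0.38 and Vps37a, a gene of endosomal sorting, had 0.33.

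On the lower side, Taf15, an RNA-binding protein gene, had 49.9, 54.6 and 95.4 CPM as the lowest, median and highest values at 10 mg/kg and 72.1, 93.1 and 107 CPM with vehicle. Its log2 fold change was -0.63 ± 0.13 (edgeR adjusted p = 0.107), and -0.78 without 10 mg/kg library 6, where it was called (adjusted p = 0.000932). That omission gave 18 calls, 13 of them protein-coding, against 2 calls with all libraries. Snrnp70, which encodes a protein of the U1 spliceosomal particle, had 149 to 236 CPM at 10 mg/kg and 215 to 299 CPM with vehicle (-0.46 ± 0.10, edgeR adjusted p = 0.107). Rnaseh2c, a ribonuclease H2 subunit gene, had -0.66, Nsun5, an RNA methyltransferase gene, had -0.75 and Ring1, a Polycomb gene, had -0.59. The values were -0.62 for Pdap1, -0.63 for the prefoldin subunit gene Pfdn6, -0.55 for Timm13, a mitochondrial import gene, and -0.37 for Apmap.

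None of Gpr4, Gpr65 and Gpr132 was called. Gpr4 (chr7:19212538-19224174), the gene of the drug's target, had 0.737, 1.28 and 2.49 CPM as the lowest, median and highest values at 10 mg/kg and 0.465, 1.12 and 1.79 CPM with vehicle. The groups overlapped, and the log2 fold change was 0.11 ± 0.35 (edgeR adjusted p = 0.919). Gpr65 had 2.36 to 9.97 CPM at 10 mg/kg and 1.94 to 7.21 CPM with vehicle (0.60 ± 0.28, edgeR adjusted p = 0.432). Gpr132 had a log2 fold change of 0.37 ± 0.25. Of 14 tested genes of endothelial adhesion and acidosis response, 3 were higher and 0 lower at an unadjusted p of 0.05 (Adm, Cx3cl1 and Ccl20). At that threshold 5.32% of all genes were higher and 5.69% lower. None of the 14 was called, and the list median was 0.25. Adm, the vasodilator adrenomedullin, had a log2 fold change of 0.91 ± 0.40 (edgeR adjusted p = 0.411). The 14 genes of blood and lymphatic endothelium had a median of 0.06, with 0 past the unadjusted threshold.

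In 37 gene lists, no member was called at an adjusted p of 0.05, and the list counts below use the unadjusted p, which 5.32% of all genes passed on the higher side and 5.69% on the lower. Of all genes, 47.1% had a log2 fold change above 0. For bulk tissue, fewer cells of a type and less RNA per cell cannot be told apart. Of 22 genes of the interferon gamma response, 21 had a log2 fold change above 0, 3 passed on the higher side (Gbp3, Gbp2 and Irf1) and the median was 0.36. Gbp3, a guanylate-binding protein gene, had 28.2, 72.9 and 117 CPM as the lowest, median and highest values at 10 mg/kg and 10.5, 35.8 and 75.9 CPM with vehicle (0.71 ± 0.29, edgeR adjusted p = 0.375). Gbp2 had 131 to 489 CPM at 10 mg/kg and 37.1 to 297 CPM with vehicle (0.63 ± 0.29, edgeR adjusted p = 0.419). The groups overlapped for Gbp3 and Gbp2. The list median was 0.09 without the 3 vehicle libraries of highest pancreas signal, 0.25 without vehicle library 3, which is 1 of those 3, and 0.23 without 10 mg/kg library 7.

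All 16 genes of the type I interferon response lay above 0, 2 passed (Rsad2 and Rtp4) and the median was 0.41. That median was 0.08 without 10 mg/kg library 7 and 0.17 without the 3 vehicle libraries of highest pancreas signal. Rsad2, the antiviral gene viperin, had 14.3 to 55.5 CPM at 10 mg/kg and 8.76 to 32 CPM with vehicle (0.79 ± 0.27, edgeR adjusted p = 0.317). The 13 T cell genes all lay above 0 with a median of 0.32, or 0.16 without those 3 vehicle libraries. The 1 that passed, Cd3e, a subunit of the T cell receptor complex, had 4.64 to 13.0 CPM at 10 mg/kg and 2.51 to 6.72 CPM with vehicle (0.78 ± 0.30, edgeR adjusted p = 0.348). The medians were 0.54 for 8 genes of cytotoxic lymphocytes, which was 0.0023 without 10 mg/kg library 7, 0.18 for 7 of regulatory T cells, 0.26 for 11 of B cells and follicles and 0.38 for 10 of plasma cells. Without the 3 vehicle libraries of highest pancreas signal, the medians of these 4 lists were 0.26, 0.006, 0.19 and 0.22, in the same order. In the 4 lists only Cxcl13, the follicular chemokine, passed (0.65 ± 0.28).

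The cytokine and myeloid lists held no gene past the unadjusted threshold. Their medians were -0.20 for 10 inflammatory cytokines, 0.24 for 11 genes of the interleukin 12 and 23 axis, 0.33 for 7 neutrophil genes, 0.19 for 15 monocyte and macrophage genes and -0.27 for 6 genes of mast cells and eosinophils. Il1b, the gene of interleukin 1 beta, had 3.65 to 23.1 CPM at 10 mg/kg and 3.43 to 106 CPM with vehicle, and its log2 fold change of -0.44 was 0.68 without vehicle library 2. Without that library the cytokine median was 0.60 and the neutrophil median 1.3, while without 10 mg/kg library 2 the neutrophil median was -0.24. The 16 genes of the epithelial response to interleukins 22 and 17 had a median of 0.19, or 0.61 without vehicle library 2. Among them the antimicrobial lectin genes Reg3b and Reg3g had log2 fold changes of -1.62 ± 1.22 and -1.35 ± 1.26, or -0.10 and 0.23 without vehicle library 2. Lcn2, a neutrophil and epithelial siderophore-binding protein gene, had 0.94 ± 0.63, or 0.05 without 10 mg/kg library 2.

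**Figure D3:**
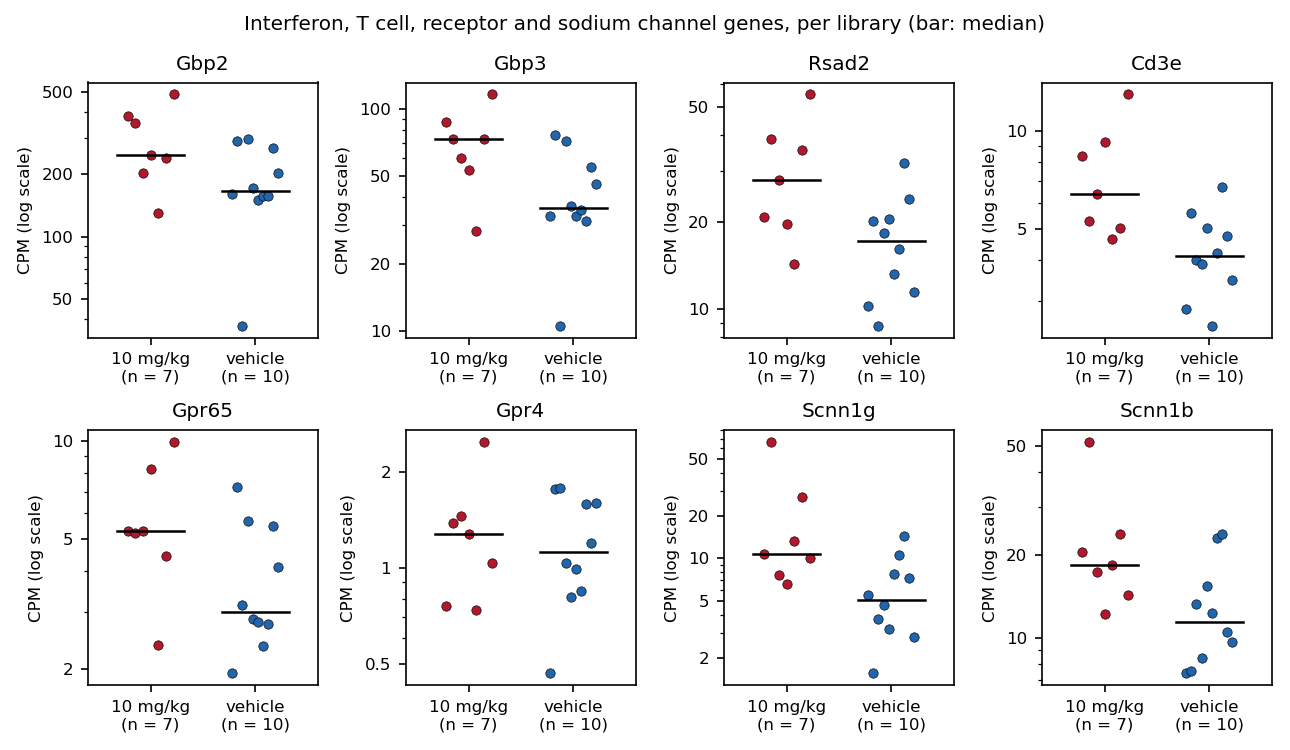
CPM on log axes of 8 genes in each library at 10 mg/kg (n = 7, red) and with vehicle (n = 10, blue), with bars at the medians. The groups overlapped for each gene, and the smallest edgeR adjusted p among them was 0.209, for Scnn1g.

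Among epithelial lists, 4 of 16 genes of absorptive colonocytes passed on the higher side and 0 on the lower, with a median of 0.15. Scnn1g, the gamma subunit of the epithelial sodium channel, had 6.58, 10.7 and 66.7 CPM as the lowest, median and highest values at 10 mg/kg and 1.55, 5.11 and 14.3 CPM with vehicle. The groups overlapped, and the log2 fold change was 1.72 ± 0.45 (edgeR adjusted p = 0.209), or 1.03 without 10 mg/kg library 2. The beta subunit gene Scnn1b had 0.78 ± 0.29, or 0.43 without that library, and the alpha subunit gene Scnn1a 0.19 ± 0.12. The other colonocyte genes that passed were Ceacam1, an adhesion molecule gene (0.44 ± 0.18), and Atp12a, a proton and potassium pump gene. Goblet cell genes had a median of -0.03, with Agr2, a mucin folding gene, past the threshold on the lower side (-0.34 ± 0.15).

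All 12 proliferation genes lay below 0 with a median of -0.30 and 0 passed. Crypt stem cell genes had a median of -0.35, and 1 of 9, the receptor gene Ephb2, passed on the lower side (-0.42 ± 0.15). The medians were -0.14 for 10 enteroendocrine genes, 0.12 for 7 tuft cell genes, -0.17 for 4 squamous genes and 0.05 for 17 genes of drug and xenobiotic metabolism, with 0 past the threshold. The 12 immediate early and heat shock genes had a median of -0.11 and 3 passed on the lower side (Hspa1b, Hspa1a and Fosb). Hspa1b, an inducible Hsp70 gene, had 10.7 to 36.5 CPM at 10 mg/kg and 14.6 to 306 CPM with vehicle (-1.60 ± 0.54, edgeR adjusted p = 0.315), or -0.90 without vehicle library 1 and -0.54 without the 3 vehicle libraries of highest pancreas signal. Of 13 mitochondrial messenger RNAs, 6 passed on the higher side and 1 on the lower, with a median of 0.31, and mt-Nd2, a complex I subunit gene, had 0.48 ± 0.12 (edgeR adjusted p = 0.183). The 14 genes of hypoxia, glycolysis and angiogenesis had a median of 0.08, with Adm past the threshold on the higher side and Ankrd37 on the lower. The 4 sex-linked genes tested, all Y-linked, had a median of 0.24, with Eif2s3y past the threshold on the higher side (0.43 ± 0.16). Xist was not tested, and the labels used here give no sex.

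The lowest list medians belonged to cell types of the deeper wall and of neighbouring tissue. For exocrine pancreas, which is not part of the colon, all 13 genes lay below 0, 12 passed and the median was -5.76. Its summed level was 69.6, 166 and 470 TPM as the lowest, median and highest values at 10 mg/kg and 83.0, 204 and 27902 TPM with vehicle. High values were not confined to vehicle, as the highest was 18933 TPM at 30 mg/kg and 19131 TPM in the wild-type libraries. The 10 mg/kg and vehicle groups overlapped, and vehicle libraries 6, 1 and 3 held 27902, 11996 and 3764 TPM. Without those 3 libraries the median was -1.0. Adipocyte genes had a median of -1.39, or -0.39 without those 3 libraries, and 1 of 8, the lipid droplet gene Plin1, passed on the lower side (-2.68, or -0.64 without those 3 libraries).

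All 8 smooth muscle genes lay below 0 with a median of -0.93 and 0 passed. Their summed level was 221 to 2888 TPM at 10 mg/kg and 256 to 6433 TPM with vehicle, while the wild-type libraries had 3870 to 8929 TPM. The median was -0.59 without the 3 vehicle libraries of highest pancreas signal. All 12 genes of enteric neurons and glia lay below 0 with a median of -0.85, or -0.47 without those 3 libraries, and the receptor gene Ret passed on the lower side (-0.81 ± 0.37). The medians were -0.24 for 14 fibroblast and matrix genes, -0.22 for 8 matrix metalloproteinases, -0.32 for 6 erythroid genes, which was 0.10 without the same 3 libraries, and 0.01 for 6 skeletal muscle genes, and in these lists only Tnnt3, of skeletal muscle, passed, on the higher side (1.69 ± 0.77, or 0.68 without 10 mg/kg library 1). Mmp13, a collagenase gene, had a log2 fold change of -1.04 ± 0.75, or 0.10 without vehicle library 2.

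**Figure D4:**
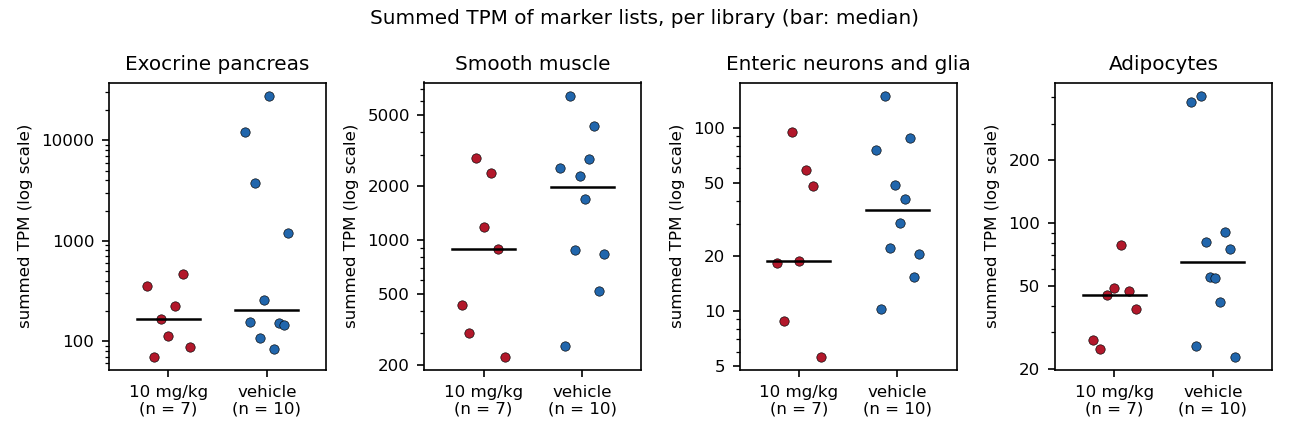
Summed TPM on log axes of 4 marker lists in each library at 10 mg/kg (n = 7, red) and with vehicle (n = 10, blue), with bars at the medians. The groups overlapped in all 4 lists, and the highest pancreas value was 470 TPM at 10 mg/kg and 27902 TPM with vehicle.

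**Figure D5:**
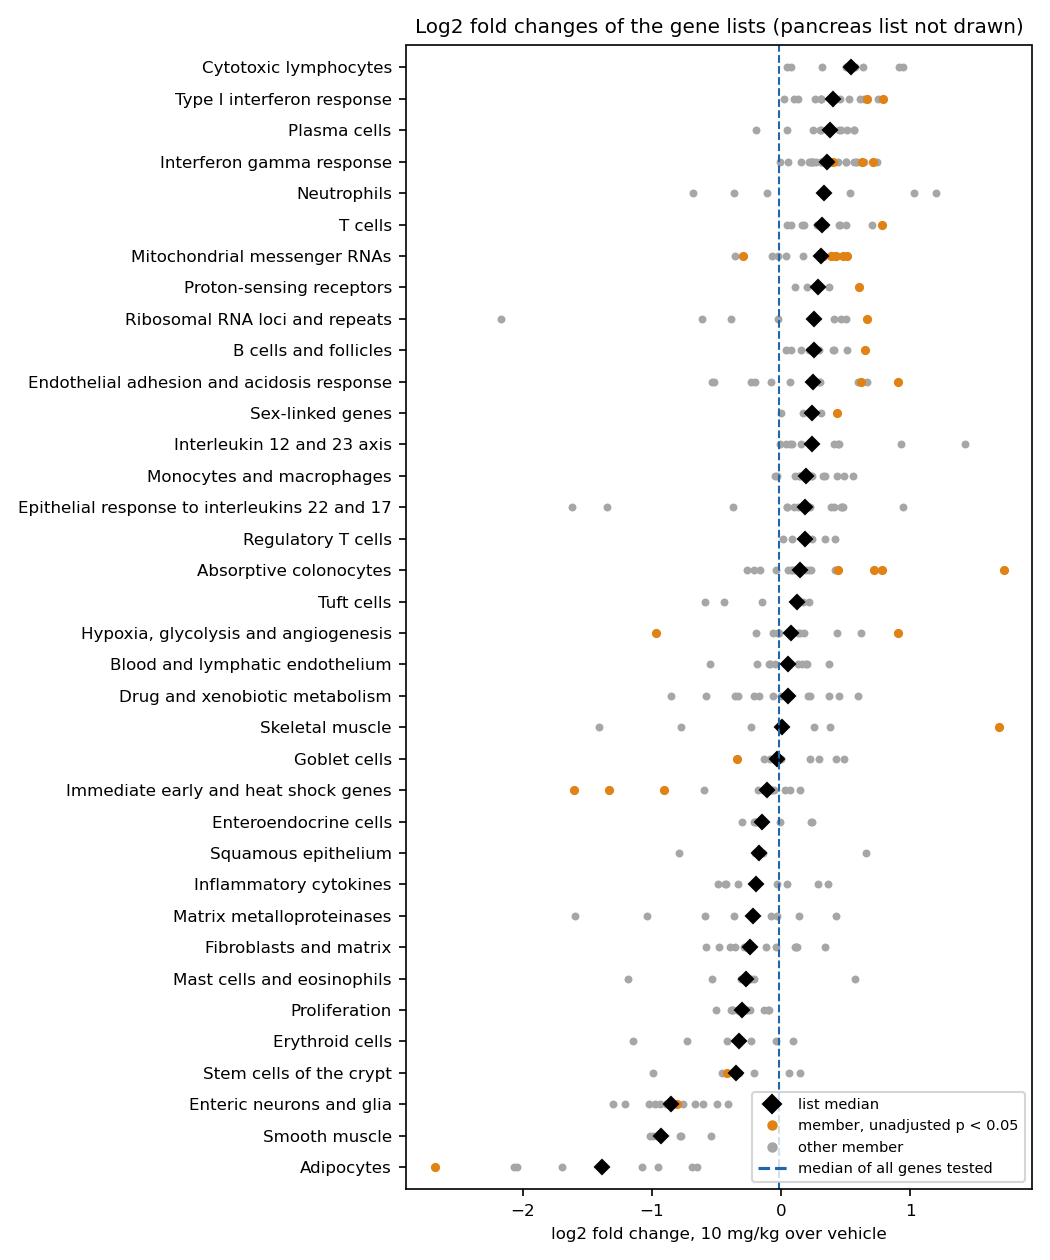
Log2 fold change of 10 mg/kg over vehicle for the tested members of each list (points), with list medians (diamonds), members past an unadjusted p of 0.05 in orange and the median of all genes as a dashed line at -0.02. Adipocyte, smooth muscle and enteric neuron lists had medians of -1.39, -0.93 and -0.85, and the pancreas list, at -5.76, is not drawn.

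The authors' deposited table for this comparison gave an adjusted p under 0.05 to 82 of 13576 genes (0.604%), 36 higher and 46 lower, and 68 of the 82 encode proteins. Both genes called by edgeR were among the 82. The authors' deposited table carries a significance flag for 10 genes (0.0737%). The flag also asks for an absolute log2 fold change of 1 or more, a cut that the edgeR calls did not use. It flags as higher CT010467.1, Gm10925, Rnaset2b and Scnn1g, at log2 fold changes of 1.48, 1.03, 1.44 and 1.81 in the authors' deposited table. Among those it flags as lower are Gm5641, Tpt1-ps3, Tnnt2, Shf and Ctrl, at -1.13, -1.19, -1.11, -1.03 and -5.62 in the authors' deposited table. Ctrl, which encodes a pancreatic digestive enzyme, had 0.0854 to 2.91 CPM at 10 mg/kg and 0.253 to 409 CPM with vehicle. The edgeR adjusted p of the flagged genes named here ranged from 0.00198 for CT010467.1 to 0.309 for Ctrl. Of the 81 genes called by DESeq2 from the counts, 60 were also among the 82, which is 74.1% of the 81 and 73.2% of the 82.

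The 30 mg/kg libraries shared their vehicle libraries with the 10 mg/kg comparison, so values of both doses stand side by side here. At 30 mg/kg over vehicle edgeR called 0 genes, with 1004 at an unadjusted p of 0.05 and a smallest adjusted p of 0.610. CT010467.1 had 1054 to 2243 CPM at 30 mg/kg with a median of 1305 CPM (log2 fold change over vehicle 0.63 ± 0.20, edgeR adjusted p = 0.835). Gm9625 had 33.0 to 57.7 CPM at 30 mg/kg (log2 fold change over vehicle -0.07 ± 0.09). List medians at 30 mg/kg over vehicle were -0.12 for the interferon gamma response, 0.33 for smooth muscle and 1.18 for adipocytes, against 0.36, -0.93 and -1.39 at 10 mg/kg. Other lists kept their sign. Medians at 30 mg/kg were -0.33 for proliferation, 0.32 for absorptive colonocytes and -0.84 for inflammatory cytokines, against -0.30, 0.15 and -0.20 at 10 mg/kg. These lists are examples, and no list was tested for a difference between doses. Between 10 and 30 mg/kg directly, edgeR called 0 genes, with 2451 at an unadjusted p of 0.05 and a smallest adjusted p of 0.0747. DESeq2 and limma were not run on those 2 contrasts.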

How the data were processed

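Expected counts and TPM per gene were deposited by the authors for poly(A)-enriched distal colon RNA. The submitters' processing notes list the genome build mm10 and, without their roles, DESeq2 1.30.1, RSEM 1.3.3, STAR 2.7.8a and cutadapt 3.7. Neither the annotation nor the strand setting is given in the sources used here. A comparison table deposited by the authors holds log2 fold changes and p-values. Of the expected counts above 0 in the deposited knockout columns, 17.0% were not whole, and they were rounded for the tests. The members and gene lists were chosen with earlier results of these data known.

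Genes were filtered with filterByExpr, scaled by TMM and fitted with edgeR 4.0.16 (quasi-likelihood, robust) in R 4.3.3 over the 10 mg/kg, 30 mg/kg and vehicle groups, with Benjamini-Hochberg adjustment over all genes tested and a threshold of 0.05. Alternatives used DESeq2 1.42.0 and limma 3.58.1, other scalings and filters, log2(TPM + 1) and log2(TPM + 0.1), covariates and omitted libraries. Library measures were tested by exact permutation (scipy 1.17.1; smallest possible p 5.14e-05). Of 50600 gene identifiers, 50376 matched GENCODE M21, which gave classes, sequences and positions; pseudogenes were matched to transcripts with blastn 2.17.0. Only the main edgeR steps were tested on simulated data, not DESeq2, limma or the fits with covariates.

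Named genes were the called genes, the 10 protein-coding genes per direction with the smallest p, Il10 and the proton-sensing receptors, and per list the 2 most abundant members and the member with the smallest p; genes outside this rule (such as Gm10925, Tpt1-ps3, Gm5641, AY036118, their partner genes, Gbp2, Irf1, Reg3b and Reg3g, Lcn2, Ccl20, Rtp4, Fosb, Hspa1a, Atp12a, Ankrd37, Duox2, Scnn1a, Scnn1b, Ctrl, Shf and Tnnt2) were chosen after their values were seen. A few genes that the rule names are not reported here. Total counts were 23.2 to 35.4 M per library. Within groups, pairs of libraries differed beyond sampling noise, with chi-square per degree of freedom of 65.3 to 255 at 10 mg/kg and 33.4 to 297 with vehicle.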

Additional observations from a re-analysis of the deposited data

Results flagged for a closer look

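In 33 of 336 groups of values tested, the highest or lowest library stood apart from the others of its group, and chance flags about 1 in 20 groups. Vehicle library 3 stood apart most often. It was low for the interferon-related genes Cd74 (651 CPM), H2-Ab1 (157 CPM), Gbp3 (10.5 CPM), Gbp2 (37.1 CPM) and Irf1 (124 CPM), and for the epithelial genes Ceacam1 (2256 CPM), Ces2e (94.1 CPM) and Duox2 (95 CPM). It was high for Pecam1 (38.5 CPM), Sparc (199.6 CPM) and the histone share (0.0959% of counts). Vehicle library 2 was high for Il1b (106 CPM), Adm (44.3 CPM) and Mmp13 (62.0 CPM). Vehicle library 9 was low for Pdap1 (48.6 CPM), Nsun5 (6.48 CPM), Pfdn6 (19.4 CPM) and AY036118 (13.1 CPM), and high for Gm10925 (4168 CPM).

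At 10 mg/kg, library 6 was high for Taf15 (95.4 CPM), AY036118 (126 CPM) and Acta1 (15.5 CPM). Library 5 was low for Igha (673 CPM), Jchain (378 CPM) and Mmp13 (0.891 CPM), and high for mt-Rnr2 (2055 CPM). Library 1 was high for Tnnt3 (2.09 CPM) and low for the share of values that are not whole (13.0%). Single flags fell on 10 mg/kg library 7 for Patl1 (43.6 CPM), library 3 for Pigr (4680 CPM) and library 2 for Insl5 (126 CPM). Others fell on vehicle library 7 for Ikzf2 (3.84 CPM) and library 1 for Hspa8 (1924 CPM).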

How the results depend on the processing

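No paired analysis was possible because the replicate numbers were given in accession order and pair no libraries. Against 2 genes called, DESeq2 called 81, limma 20 on log2(TPM + 1) and 22 on log2(TPM + 0.1). The count was 1 with the mitochondrial share, the log2 total count or the smooth muscle level as covariate, with pseudogenes summed with their genes, and without the 3 vehicle libraries of highest pancreas signal. It was 0 with the processed pseudogene or ribosomal RNA share as covariate and over protein-coding genes only (fitted or adjusted alone). It was also 0 with only 10 mg/kg libraries 4, 6 and 7, those in the vehicle range of total count. Protein-coding calls, 0 as reported, were 67 with DESeq2, 11 and 12 on TPM and 1 with total-count scaling. Pseudogene calls, 1 as reported, were 8 with DESeq2, 5 on either TPM scale, and 0 with total-count scaling, under each covariate, with summed pseudogenes, without the 3 pancreas-rich vehicle libraries and in the vehicle range of total count. Ribosomal RNA locus calls, 1 as reported, were 2 with DESeq2 and on TPM, and 0 where the total was 0. Other genes, 0 as reported, gave 4 with DESeq2 and 2 and 3 on TPM. Leaving out 1 library gave 1 to 18 calls, 0 to 13 of them protein-coding, 0 to 3 pseudogenes and 1 to 2 ribosomal RNA loci; 10 mg/kg libraries 6, 2 and 4 gave 18, 8 and 4, vehicle library 9 gave 3, and 1 call was left without 10 mg/kg library 1, 5 or 7 or vehicle library 2, 5, 7, 8 or 10.

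The log2 fold change of CT010467.1 was 1.44, 1.19 and 1.42, uncalled, with the processed pseudogene share, the ribosomal RNA share, which counts this gene, and 10 mg/kg libraries in the vehicle range. Gm9625, uncalled, was -0.66 with total-count scaling, -0.42, -0.50, -0.63, -0.50 and -0.54 with the pseudogene, mitochondrial, ribosomal RNA, total count and smooth muscle covariates, -0.62 without the 3 pancreas-rich vehicle libraries and -0.53 in the vehicle range. The pseudogene share counts Gm9625 itself. Leaving out 1 library gave -0.64 to -0.53 for this gene.

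With the ribosomal RNA covariate, list medians were 0.93 for cytokines, 0.79 for interleukins 12 and 23, 3.02 for neutrophils, 1.04 for plasma cells, 0.19 for mast cells, 0.20 for proliferation, -0.74 for tuft cells, -0.28 for drug metabolism, -2.31 for neurons, -2.84 for adipocytes, -1.88 for erythroid cells and -0.42 for ribosomal RNA loci. With the processed pseudogene covariate they were -0.10 for stem cells, -0.52 for tuft cells, 0.21 for fibroblasts, 0.012 for sex-linked genes and -0.024 for mitochondrial messengers. With the mitochondrial covariate they were 0.23 for mast cells, -0.38 for tuft cells, 0.35 for squamous epithelium, -1.27 for erythroid cells and -0.016 for mitochondrial messengers. With the smooth muscle covariate they were 0.0093 for cytotoxic lymphocytes and -0.11 for stem cells. With only the 10 mg/kg libraries in the vehicle range of total count (4, 6 and 7) they were 0.59 for interleukins 12 and 23 and -1.91 for neurons. Tuft cells had -0.25 with limma voom and -0.25 and -0.36 on TPM, and exocrine pancreas -1.94 with voom, -1.87 on log2(TPM + 0.1) and -1.0 without the 3 pancreas-rich vehicle libraries. Leaving out 1 library gave -0.32 to 0.60 for cytokines, 0.12 to 0.53 for interleukins 12 and 23, 0.0023 to 0.67 for cytotoxic lymphocytes and -0.50 to 0.16 for tuft cells. The mitochondrial share is that of the listed messengers, and the ribosomal RNA share counts the listed ribosomal RNA loci. Nothing is read from the medians of those lists under their own share.

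As differences of medians, total count (6.24 M) and processed pseudogenes (-0.0316%) no longer passed. As shares of TPM, mitochondrial messengers (1.12%), ribosomal RNA loci (0.118%) and processed pseudogenes (-0.0897%) did not pass, nor did ribosomal RNA loci without CT010467.1 (0.0339%). Leaving out 1 library gave 3.58 to 5.56 M for total count, 0.651% to 0.906% for mitochondrial messengers and 1.3% to 1.92% for the 10 most abundant genes. The causes were not tested. Of 158 log2 fold changes of named genes, the sign changed in 0 with RLE scaling, 20 with the ribosomal RNA covariate and 31 with the processed pseudogene covariate. Total-count scaling moved the median of all genes to -0.10 and the TPM scales to -0.09 and -0.11. The alternatives for GC content, shares without CT010467.1 or Gm10925, summed pseudogenes, pancreas-rich libraries, total count, smooth muscle and adjustment over protein-coding genes were chosen after seeing the data.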
